A study of Mus musculus with 12 samples.

Results

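Swimming was compared with rest in the hypothalamus of wild-type mice, using the 3 arrays of the wild-type exercise group (here called swimmers) and the 3 arrays of the wild-type control group (WT), 6 of the 12 arrays of the series. The members are these 6 arrays, chosen by their labels, and no measured value entered the choice. All mice were males on a C57BL/6 background with a labelled age of 6 to 7 weeks, which is the age at which training started according to the methods. WT mice and swimmers were wild-type littermates of Asmt-knockout mice, and both kept a 12-h light:dark cycle. Swimmers were trained by daily free swimming without load in warm water, at a fixed time in the morning and over several weeks, whereas WT mice were not trained. The Asmt-knockout control group (KO, 3 arrays) consisted of homozygous Cas9-made knockouts of the last enzyme of melatonin synthesis, at rest, and is used below only for its arrays on both slides. The knockouts that swam (3 arrays, all on slide 2) are not described, but enter the shared normalization, the detection filter and the spread of the fit with the slide as a block. The labels number the samples of a group as replicates without saying whether each array holds 1 mouse, so p-values measure the spread between these samples.

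The hypothalamus holds the neurons that set feeding, body temperature, water balance, reproduction and the stress response, and the suprachiasmatic nucleus, the central circadian clock. Exercise is a physical load that draws on many of these systems. It activates the corticotropin-releasing hormone axis, which ends in the release of glucocorticoids from the adrenal gland, and glucocorticoids enter the brain and induce a well-known set of target genes there, among them Fkbp5, Sgk1, Tsc22d3 and Zbtb16. Warming of the body and cellular stress induce heat shock proteins, and neuronal activity induces immediate-early genes such as Fos and Egr1.

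RNA labelled with Cy3 was hybridized to Agilent mouse arrays with 59305 spots for 56605 probes. Signals are given as the authors' quantile-normalized log2 values, in which a difference of 1 is a 2-fold change. The share of spots well above background was 67.13%, 61.62% and 61.97% in WT and 63.82%, 67.91% and 67.5% in the swimmers, and 0 spots were saturated. The 75th percentile of the processed signal before normalization was 844.2, 840.4 and 823.8 in WT and 1126.9, 1106.7 and 1111.0 in the swimmers, so that all swimmer arrays were brighter than all WT arrays.

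The arrays lay on 2 slides, and the slides coincide with the groups compared. All WT arrays and KO replicates 1 and 2 were on slide 1, and all swimmer arrays and KO replicate 3 were on slide 2. The 75th percentile of the processed signal was 811.8 and 935.5 in KO on slide 1 and 1029.2 in KO on slide 2. Every array of slide 2 was thus brighter than every array of slide 1. The effect of swimming and that of the slide therefore cannot be told apart within the 6 arrays. KO is the only group on both slides, and the difference of KO replicate 3 from the mean of KO replicates 1 and 2 is given below as the KO slide difference. A fit with the slide as a block subtracts this difference from swimmers minus WT, and it rests on the single KO array on slide 2.

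The tissue label was checked against transcription factors of hypothalamic nuclei. All 12 had a tested probe and none was at background on all 6 arrays. Nkx2-1, Nr5a1 and Otp mark the ventral hypothalamus, its ventromedial nucleus and its paraventricular region. Nkx2-1 was 10.69, 10.62 and 10.55 in WT and 10.58, 10.53 and 10.41 in the swimmers, and Otp was 13.15, 12.96 and 12.75 in WT and 12.83, 12.72 and 12.44 in the swimmers. The neuropeptide genes oxytocin, orexin (Hcrt) and melanin-concentrating hormone (Pmch), which mark hypothalamic neurons, were well above background on all 6 arrays.

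Of 35230 probes tested, 2958 differed between the swimmers and WT at an adjusted p under 0.05 (limma with Benjamini-Hochberg adjustment), which is 8.4% of the probes. Of these, 2183 probes (6.2%) for 1367 gene symbols were higher in the swimmers, and 775 probes (2.2%) for 619 symbols were lower. Changes of at least 2-fold were nearly all rises, with 630 probes higher and 25 lower. With a change of 2-fold or more at an unadjusted p of at most 0.05, as the methods screened, 756 probes (2.15%) were higher and 39 (0.111%) were lower. The balance was the other way for weaker criteria, with 4610 probes higher and 5421 lower at an unadjusted p under 0.05, and with 15.4% of probes higher and 22.2% lower by groups that did not overlap. The median difference over all tested probes was -0.04. Leaving out 1 array gave between 957 (without replicate 2 of the swimmers) and 2467 (without WT replicate 2) adjusted calls. With normexp background correction there were 4609 (2683 higher and 1926 lower), and with the 4 group means fitted on all 12 arrays without the slide there were 0, the smallest adjusted p being 0.0934 and 9154 probes having an unadjusted p under 0.05.

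Most called probes had a KO slide difference of the same sign. Of the 2183 probes called higher in the swimmers, 2148 (98.4%) had a KO slide difference above 0, beside 41.1% of all tested probes, and of the 775 called lower, 733 (94.6%) had one below 0, beside 58.9%. These are signs of 1 array against 2 and carry no test. Across all tested probes, swimmers minus WT and the KO slide difference correlated with a Pearson r of 0.75 and a Spearman rho of 0.65, which is a description over 35230 probes that are not independent and were normalized together. In the limma fit with the slide as a block the smallest adjusted p was 0.078, so 0 probes passed, and at an unadjusted p of at most 0.05 there were 980 probes (2.78%) higher and 1198 (3.4%) lower. The difference had turned its sign for 1967 of the 2958 called probes. These signs rest on KO replicate 3, which lay farther from the arrays of slide 1 than the swimmers did. On the first principal component of the tested probes (47.3% of the variance) it was at -40. The swimmers were at -27.4, -26 and -19.3, and all arrays of slide 1 were above 0. The turned signs are not read as changes with swimming.

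**Figure D1:**
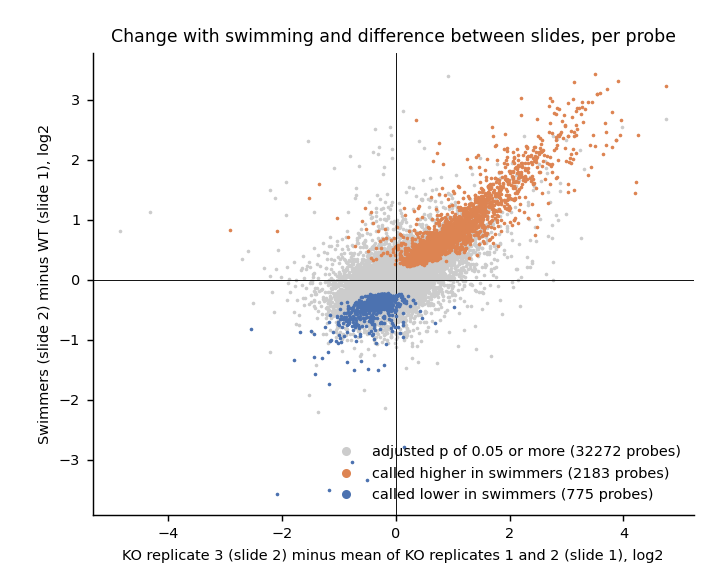
Each point is 1 of 35230 tested probes, with the KO slide difference on the horizontal axis and swimmers minus WT on the vertical axis, both in log2 units. Of the probes called higher in the swimmers (orange), 2148 of 2183 lie to the right of 0, and of those called lower (blue), 733 of 775 lie to the left of 0.

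Some of the probes that rose read nearly the same bases as a probe for another gene, and the pairs printed here were chosen after their values were seen. Each pair consists of a probe called higher in the swimmers and a probe for a highly expressed gene that reads almost the same bases. Capitals mark the aligned bases that differ between the probes of a pair, bases outside the alignment are in lower case, and positions are those of the array annotation (mm9). The first pair is the predicted gene Gm5481, at chr16:16275909-16275968, and Rpl30, a protein of the large ribosomal subunit, at chr15:34371013-34371072, with 53 of 59 aligned bases identical.
Gm5481: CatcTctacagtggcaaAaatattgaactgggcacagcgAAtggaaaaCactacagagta
Rpl30: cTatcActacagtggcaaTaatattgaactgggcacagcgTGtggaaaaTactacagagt
The second pair is Gm9127, at chr7:33576616-33576675, and Gapdh, the glycolytic enzyme, at chr6:125113312-125113371, with 45 of 52 aligned bases identical.
Gm9127: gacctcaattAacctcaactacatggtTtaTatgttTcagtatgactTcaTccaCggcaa
Gapdh: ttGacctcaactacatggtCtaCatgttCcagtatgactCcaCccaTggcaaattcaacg
The third pair is an Rpl21 pseudogene, at chr1:186441209-186441268, and Rpl21, another protein of the large subunit, at chr5:147646040-147646581, with 54 of 59 aligned bases identical.
Rpl21 pseudogene: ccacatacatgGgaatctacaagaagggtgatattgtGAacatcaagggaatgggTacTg
Rpl21: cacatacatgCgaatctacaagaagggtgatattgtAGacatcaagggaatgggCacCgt

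The Gm5481 probe was 10.39, 10.91 and 10.66 in WT and 12.22, 12.24 and 12.03 in the swimmers, a difference of 1.51 (SE 0.14, adjusted p = 0.00439, limma), and the Rpl30 probe differed by -0.07 (adjusted p = 0.392). On the KO arrays the Gm5481 probe was 10.62 and 10.43 on slide 1 and 12.46 on slide 2. The swimmer arrays and the KO array of slide 2 were thus high, and the WT and KO arrays of slide 1 were low. The Gm9127 probe differed by 1.43 (adjusted p = 0.000493) and its Gapdh match by -0.03 (adjusted p = 0.765), with KO slide differences of 1.78 and 0.01. The Rpl21 pseudogene probe differed by 1.04 (adjusted p = 0.00341) and the Rpl21 probe by 0.15 (adjusted p = 0.192). In these 3 pairs the probe of the copy was called higher and that of the expressed gene was not. Of 257 near-copy probes called higher whose matching probe was tested, 122 had a match that was also called higher, unlike these pairs, and the median difference of the matches was 0.36.

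Near copies were then counted over the whole array. Of 1076 tested probes that are a near copy of another probe on the array (at least 45 aligned bases with at least 80% identity), 265 (24.6%) were called higher, beside 5.62% of the 34154 probes without one. Probes annotated as pseudogenes were called higher in 82 of 312 cases (26.3%), predicted genes in 345 of 1642 (21.0%) and lincRNAs, long intergenic non-coding RNAs, in 274 of 2087. Other probes with a gene symbol were called higher in 1275 of 29440 cases (4.33%). The KO slide difference had medians of 0.19 for the pseudogenes, 0.12 for the predicted genes and 0.20 for the near copies, beside -0.06 over all tested probes. These classes were chosen after the values were seen, and their part in the result was not tested.

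Short sequence words also marked the rises. Among 902 words of 8 bases that occur in at least 100 tested probes, GAGAAACC had the highest share of probes called higher, with 42 of 119 (35.3%) and 0 called lower, followed by GTGTGTGT with 79 of 231 (34.2%). Over all 35230 tested probes 6.2% were called higher and 2.2% lower, and the words named are those with the highest shares. Words were read on the strand of the probe only, and the repeats overlap with each other. GAGAAACC codes part of the linker between the fingers of C2H2 zinc-finger proteins, the largest family of mammalian transcription factors, and recurs in many family members. It is in capitals in the probes of 2 such genes, Gm14326 at chr2:177680655-177680714 and Zfp932 at chr5:110437920-110437979, which reappear below.
Gm14326: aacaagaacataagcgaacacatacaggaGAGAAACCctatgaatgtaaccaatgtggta
Zfp932: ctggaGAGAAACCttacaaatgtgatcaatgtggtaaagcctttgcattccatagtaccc
The median KO slide difference of the 119 probes was 0.32, and their median swimmers minus WT was 0.24, beside -0.06 and -0.04 over all tested probes.

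Among probes with a gene symbol that were well above background on all 6 arrays, with the brightest called probe taken for each gene, the 10 largest rises lay between 2.04 and 2.88. Gm12504, a predicted gene (chr4:44136851-44136910), was 5.99, 6.05 and 5.81 in WT and 8.78, 8.91 and 8.80 in the swimmers, a difference of 2.88 (SE 0.08, adjusted p = 0.000249, limma). On the KO arrays it was 5.71 and 5.92 on slide 1 and 9.08 on slide 2, and its difference with the slide as a block was -0.39. The arrays of the 2 slides did not overlap, and the KO array of slide 2 was the highest of all 9 arrays.

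The genes with known products among the 10 had the same pattern. Xpo6, which exports actin from the nucleus (chr7:133245224-133245283), was 7.34, 7.40 and 7.14 in WT and 9.56, 9.38 and 9.54 in the swimmers, a difference of 2.20 (SE 0.09, adjusted p = 0.000457), and -0.61 with the slide as a block. Hspe1, the mitochondrial co-chaperonin (chr1:55147620-55147946), was 7.67, 8.39 and 8.07 in WT and 10.42, 10.26 and 9.85 in the swimmers, a difference of 2.13 (SE 0.22, adjusted p = 0.00597), and KO was 8.03 and 8.03 on slide 1 and 10.57 on slide 2. Paip2b, an inhibitor of poly(A)-binding protein and thereby of translation, differed by 2.48 (adjusted p = 0.00158), and Ep300, a histone acetyltransferase, by 2.46 (adjusted p = 0.000709). Ranbp1, a regulator of the Ran nuclear transport cycle, differed by 2.10, Axin2, a feedback inhibitor of Wnt signalling, by 2.09, and the kinase Sgk3 by 2.06. The others were the predicted gene Gm4371 at 2.05 and the odorant receptor Olfr173 at 2.04 (adjusted p = 0.0184). With the slide as a block, the difference was below 0 for 9 of the 10, and Gm4371 was at 0.11. Without the block, 9 of the 10 were called whichever array was left out, and Olfr173 was lost without WT replicate 3 or any 1 of the swimmers, at adjusted p-values of up to 0.0746.

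Other probes of these genes had smaller differences or opposite ones. Hspe1 had probes that differed by -0.01 and 0.06, Xpo6 by -0.33 and -0.28, Ep300 by -0.16 and 0.21, and Ranbp1 by -0.22. Of 325 probes with a gene symbol that were called at least 2-fold higher, 174 belonged to a gene with another tested probe, and in 14 of these another probe was also called higher. Paip2b was one of them, with a probe at 0.61 (adjusted p = 0.0259) beside others at 0.18 and -0.34. The 335 other probes of these genes had a median difference of -0.06.

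**Figure D2:**
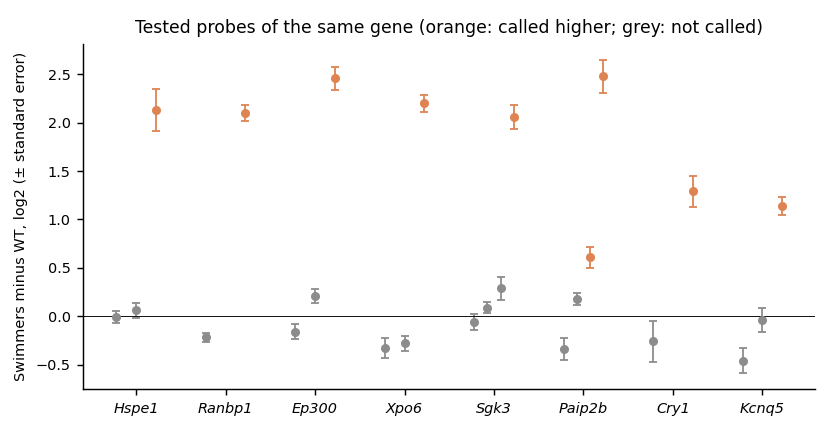
Swimmers minus WT in log2 units, with its standard error, for each tested probe of 8 genes. In Hspe1, Ranbp1, Ep300, Xpo6 and Kcnq5 1 probe called higher (orange) stands apart from the other probes (grey), which lie near or below 0, and Paip2b has a second called probe at 0.61.

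The 10 largest falls by the same rule lay between -0.90 and -1.73. Probes without a symbol or at background on some of the 6 arrays had larger differences in both directions and are not named. Slc17a9, the vesicular transporter that loads ATP into vesicles (chr2:180466965-180467024), was 7.03, 6.61 and 6.78 in WT and 5.54, 5.69 and 5.60 in the swimmers, a difference of -1.20 (SE 0.12, adjusted p = 0.00482). KO was 6.96 and 6.87 on slide 1 and 5.74 on slide 2, so that the fall was also one between slides, and the blocked difference was -0.01. Krt6a, an epithelial keratin, was 5.98, 6.51 and 6.32 in WT and 4.95, 4.54 and 4.12 in the swimmers (-1.73, adjusted p = 0.0125). Hyal2, a hyaluronidase, fell by 1.51 on the log2 scale (adjusted p = 0.0374), and the calcium-binding protein gene Cabp5 by 1.06. St6galnac2, a sialyltransferase, differed by -1.03 and Xrcc4, a factor of DNA end joining, by -0.99. The others were BC025933 and Phyhipl at -0.93, 6720468P15Rik at -0.92 and the protease gene Astl at -0.90. With the block St6galnac2 and 6720468P15Rik turned, to 0.02 and 0.08, Cabp5 and Phyhipl were at -0.04 and -0.03, and the other 5 besides Slc17a9 lay between -0.27 and -0.78. Other probes differed by -0.13 for Hyal2, -0.15 for St6galnac2 and 0.00 for Xrcc4, and lay between -0.41 and 0.22 for Phyhipl. Slc17a9, BC025933 and Astl were called whichever array was left out, and the other 7 lost the call without at least 1 array, at adjusted p-values of up to 0.138.

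A smaller set of probes met a threshold in both fits. Of the 2958 called probes, 115 (0.326% of those tested) kept their sign with an unadjusted p of at most 0.05 when the slide was a block, 52 higher (0.148%) and 63 lower (0.179%). These are 2.38% of the probes called higher and 8.13% of those called lower, beside 2.78% and 3.4% of all tested probes at such a blocked p. The share among the rises was thus no larger than that of all probes, and the share among the falls was larger. Neither difference in share was tested. The genes below are given for their values, and the set is not read as changed beyond the slide. Both fits use the same 6 arrays of swimmers and WT, so the second changes the difference by the KO slide difference and takes its spread from all 12 arrays. The 115 probes held 72 genes with a symbol that were well above background on all 6 arrays, 31 higher and 41 lower, and the genes named from them below were chosen after their values were seen. Without KO replicate 1, 79 of the 115 met both conditions, and without KO replicate 2, 69 did. Of the 72 genes, 28 met them without either KO array in turn. Leaving out 1 array of the swimmers or WT gave 32 to 76 probes, and of the 72 genes 7 were called whichever array was left out and 30 in no fit that left one out. Serpina1c, a serine protease inhibitor, was among the 7, at -0.88, but its blocked p was 0.0671 without KO replicate 1.

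Of the rises, 3 are given in full. Tsc22d3, which codes for the glucocorticoid-induced leucine zipper (chrX:137074094-137074153), was 12.95, 13.19 and 13.24 in WT and 13.60, 13.63 and 13.50 in the swimmers, a difference of 0.45 (SE 0.09, adjusted p = 0.0418, limma) and of 0.61 with the slide as a block (unadjusted p = 0.0205). All swimmer arrays were above all WT arrays, and KO was 13.17 and 13.65 on slide 1 and 13.25 on slide 2. Its blocked difference was 0.85 without KO replicate 1 and 0.37 (unadjusted p = 0.0515) without KO replicate 2, where it no longer met both conditions. Hspb1, a small heat shock protein (chr5:136365366-136365425), was 12.20, 12.33 and 12.23 in WT and 12.99, 12.58 and 12.78 in the swimmers, a difference of 0.53 (adjusted p = 0.0424) and of 0.87 with the block, or 1.20 without KO replicate 1 and 0.55 without KO replicate 2. Klf2, a transcription factor of endothelial and immune cells (chr8:74845137-74845196), was 9.60, 9.45 and 9.70 in WT and 10.14, 9.97 and 10.26 in the swimmers, a difference of 0.54 (adjusted p = 0.0335) and of 0.80 with the block (unadjusted p = 0.00162). In KO, Hspb1 was 12.39 and 13.04 on slide 1 and 12.37 on slide 2, and Klf2 was 9.94 and 10.05 on slide 1 and 9.73 on slide 2. KO replicate 2, at rest, was thus above every swimmer array for Tsc22d3 and Hspb1. For Tsc22d3 and Klf2 the adjusted p exceeded 0.05 when any 1 of the 6 arrays was left out, at up to 0.129 and 0.108, and for Hspb1 it did so for all but replicate 2 of the swimmers, at up to 0.123.

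Other genes were described with less detail. Ppp1r3g, a glycogen-targeting subunit of protein phosphatase 1, differed by 0.70 and by 0.86 with the block, Mertk, a phagocytic receptor of microglia and astrocytes, by 0.37 and 0.80, and Ltbp1, a binding protein of latent TGF-beta, by 0.55 and 0.56. Pla2g3, a secreted phospholipase, differed by 0.45 and 0.66, the proton channel gene Hvcn1 by 0.48 and 0.29, and Malt1, a protease of NF-kappaB signalling, by 0.41 and 0.68. The zinc-finger genes Gm14326 (0.44 and 0.20), Zfp932 (0.28 and 0.20) and Zfp160 (0.27 and 0.28) were also higher by the probes named, whereas Zfp655 was lower (-0.43 and -0.35). Another Zfp160 probe differed by -0.38, so that the average over its probes was -0.06, and the other Zfp932 probes lay between -0.36 and 0.19. The other probes of Malt1 lay between -0.23 and 0.03, and that of Pla2g3 at 0.13. The probes named for Gm14326 and Zfp932 hold the linker word described above. Gm14326 and Hvcn1 were called whichever array was left out, whereas Mertk, Malt1, Zfp932 and Zfp160 lost the call when any 1 array was left out, at adjusted p-values of up to 0.144. Without KO replicate 2 the blocked difference was 0.50 for Mertk, 0.54 for Ppp1r3g and 0.42 for Pla2g3, and without KO replicate 1 it was larger than with all KO arrays for all 3. KO replicate 2, at rest, was above every swimmer array for these 3, at 9.75 for Mertk, 9.17 for Ppp1r3g and 7.88 for Pla2g3. Pla2g3 and Zfp655 lost the call in 5 of the 6 fits that left out 1 array, Ltbp1 in 2 and Ppp1r3g in 1. In the blocked fit the unadjusted p exceeded 0.05 without KO replicate 2 for Pla2g3 (0.0569) and Gm14326 (0.0517), without KO replicate 1 for Hvcn1 (0.0657), and without either for Zfp932 (0.0977 and 0.0855).

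Of the falls in both fits, Cldn5 and Wnt5a are given in full. Cldn5, the tight junction claudin of brain endothelium (chr16:18778046-18778105), was 12.18, 12.14 and 12.19 in WT and 11.87, 11.79 and 11.86 in the swimmers, a difference of -0.33 (SE 0.05, adjusted p = 0.0227) and of -0.47 with the block (unadjusted p = 0.0262). Every swimmer array was below every WT array, and KO was 11.99 and 11.65 on slide 1 and 11.96 on slide 2. When 1 array was left out its adjusted p exceeded 0.05, at up to 0.0907, unless that array was WT replicate 2. In these bulk samples, fewer cells of a type and less RNA per cell cannot be told apart. Wnt5a, a ligand of non-canonical Wnt signalling, was 9.60, 9.51 and 9.63 in WT and 9.26, 9.06 and 9.08 in the swimmers (-0.45, and -0.32 with the block), and Vangl2, a core protein of planar cell polarity, differed by -0.54 and -0.41. Rnd1, a small GTPase that acts on the actin skeleton, differed by -0.40 and -0.33, the histone deacetylase gene Hdac11 by -0.29 and -0.28, and Nfatc2, a calcium-regulated transcription factor, by -0.25 and -0.30. Srp54a and Srp54c, near-identical genes for the signal recognition particle whose probes may share transcripts, differed by -0.26 and -0.41. Ppp5c, a serine/threonine phosphatase, differed by -0.27, although another probe of the gene was called higher at 1.68. Wnt5a was 9.71 and 9.57 on slide 1 and 9.52 on slide 2 in KO, and its other probe differed by 0.04. Hdac11, Nfatc2, Srp54a and Ppp5c lost the call when any 1 array was left out, Vangl2 and Rnd1 in 5 of the 6 such fits, Wnt5a in 4 and Srp54c in 1. In the blocked limma fit the unadjusted p exceeded 0.05 without KO replicate 2 for Cldn5 (0.0895, at a difference of -0.30), Wnt5a (0.0916, at -0.25), Vangl2, Rnd1 and Hdac11, and without KO replicate 1 for Srp54a, Srp54c and Ppp5c.

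Changes of at least 2-fold with an unadjusted p of at most 0.05 in both fits were found for 4 genes well above background on all 6 arrays, all higher. Cyp2a5 and Cyp2a4, closely related cytochrome P450 genes of steroid and xenobiotic metabolism whose probes may share transcripts, were both called higher whichever array was left out. Cyp2a5 was 5.55, 5.40 and 5.39 in WT and 7.47, 6.95 and 6.71 in the swimmers, a difference of 1.60 (SE 0.19, adjusted p = 0.00852) and of 2.93 with the block. Cyp2a4 was 4.89, 5.04 and 4.60 in WT and 6.44, 6.18 and 6.01 in the swimmers, a difference of 1.36 (SE 0.15, adjusted p = 0.00724) and of 2.89 with the block. The KO arrays of slide 1 were as high as the swimmers, at 7.29 and 6.73 for Cyp2a5, whereas KO on slide 2 was 5.67, near WT. Without KO replicate 1 the blocked p was 0.105 for Cyp2a5 and 0.113 for Cyp2a4, and without KO replicate 2 it was 0.0576 for Cyp2a5.

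The other 2 were Wfdc2, a secreted protease inhibitor of epithelia, and Gm34786. Wfdc2 was 5.02, 5.38 and 5.79 in WT and 6.13, 6.05 and 7.43 in the swimmers (1.14, adjusted p = 0.139), with KO at 10.74 and 9.80 on slide 1 and 5.95 on slide 2. The third swimmer array carried most of this difference, and the blocked difference was 5.45. Gm34786 was 7.35, 6.41 and 6.22 in WT and 7.41, 9.55 and 7.92 in the swimmers (1.64, adjusted p = 0.144), so that 1 swimmer array carried most of its difference. For Gm34786 KO was 8.08 and 6.45 on slide 1 and 5.33 on slide 2, and the blocked difference was 3.57. Bpifa1, a secreted protein of airway epithelium, was called higher at 0.83 (adjusted p = 0.0118), with KO at 11.42 and 10.20 on slide 1 and 7.90 on slide 2. Its blocked difference of 3.74 thus came mostly from the 2 high KO arrays, and its call was lost without replicate 2 of the swimmers or WT replicate 3, at up to 0.055.

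**Figure D3:**
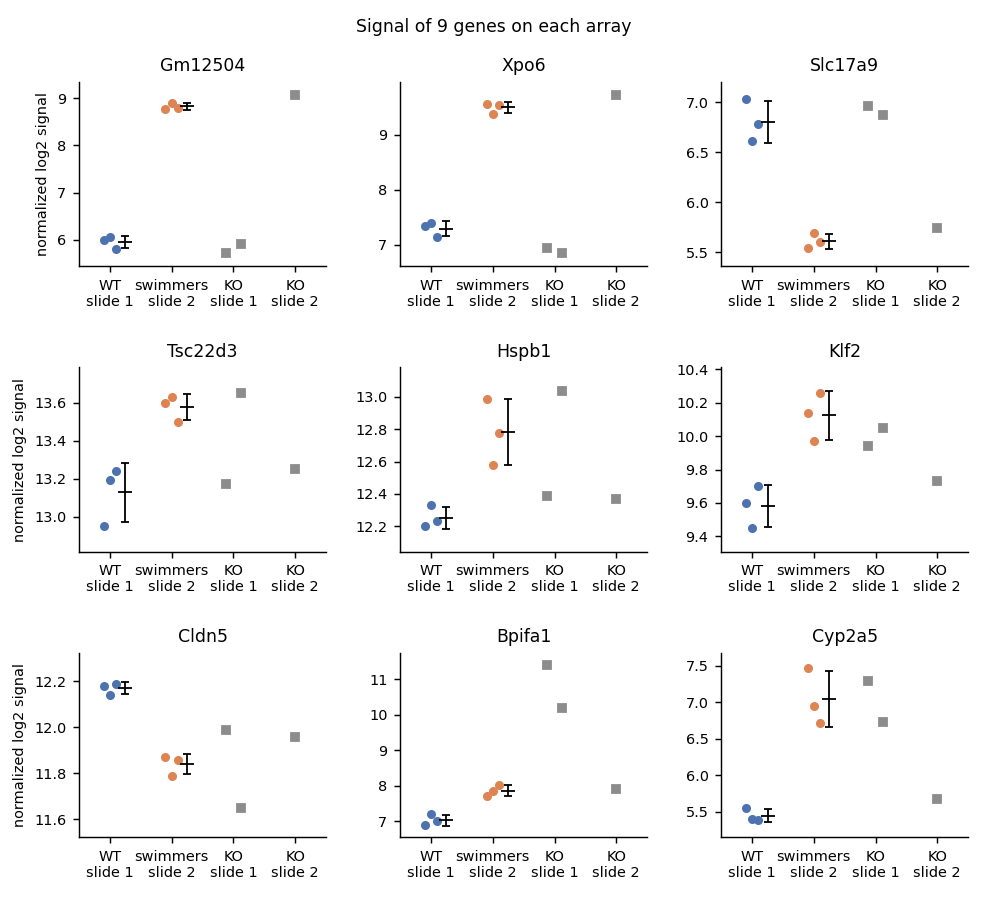
Normalized log2 signal of 9 genes on each array, for WT and KO replicates 1 and 2 on slide 1 and the swimmers and KO replicate 3 on slide 2, with the mean and SD of WT and the swimmers beside their points. Gm12504 and Xpo6 are high and Slc17a9 is low on every array of slide 2, while for Tsc22d3, Hspb1 and Klf2 the KO array of slide 2 lies nearer WT than the swimmers. KO replicate 2 on slide 1 lies above every swimmer array for Tsc22d3 and Hspb1. For Klf2 the KO arrays of slide 1 lie above every WT array.

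Genes of 26 pathways and 15 sets of cell type markers were then described by the brightest probe of each gene. Over all tested probes, 8.4% were called and the median difference was -0.04, or 0.01 with the slide as a block. The lists were chosen with earlier results of these data known. With all KO arrays, the glucocorticoid-responsive genes had the highest blocked median of the 41 lists, at 0.59. Without KO replicate 2 their median was 0.35, and the lists were not ranked without a KO array. Of 20 called members of the lists, Cry1, Kcnq5, Pik3ca and Sstr5 were called whichever array was left out, and 5 lost the call when any 1 was (Tsc22d3, Kcnq3, Rpl23, Rplp0 and Vim).

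Of 12 glucocorticoid-responsive genes, 11 had a difference above 0, beside 41.4% of all tested probes, and the median was 0.24, or 0.59 with the block. This list was chosen with earlier results of these data known, and its shares carry no test. Only Tsc22d3 was called. Zbtb16, a transcription factor gene strongly induced by glucocorticoids, was 9.88, 10.42 and 10.28 in WT and 11.49, 11.04 and 10.82 in the swimmers (0.92, adjusted p = 0.0539), and a dimmer probe of the gene, outside the rule of 1 probe a gene, was called higher at 0.85 (adjusted p = 0.00937). Fkbp5, a co-chaperone of the glucocorticoid receptor, was 10.27, 10.51 and 10.54 in WT and 10.83, 10.85 and 10.79 in the swimmers (0.38, adjusted p = 0.0506). For the 3 probes of Zbtb16 and Fkbp5 given so far every swimmer array was above every WT array. A dimmer Fkbp5 probe was 6.35, 6.12 and 6.23 in WT and 6.82, 6.82 and 6.21 in the swimmers, with overlapping groups (0.38, adjusted p = 0.229), and a second Tsc22d3 probe differed by 0.28 (adjusted p = 0.0994).

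The kinase gene Sgk1 was 12.65, 12.55 and 12.13 in WT and 13.41, 13.47 and 12.39 in the swimmers (0.64, adjusted p = 0.24), so that the third swimmer array overlapped with WT. Plin4, a lipid droplet protein, differed by 0.84 (adjusted p = 0.185), Klf9, a transcription factor of the receptor's target genes, by 0.23 (adjusted p = 0.192, and -0.02 for its other probe), Nfkbia, the inhibitor of NF-kappaB, by 0.23 and Ddit4, an inhibitor of mTOR, by 0.24. The metallothionein genes Mt1 and Mt2, which bind zinc, differed by 0.15 and -0.01.

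The arrays of swimmers and WT did not overlap, with the swimmers higher, for 5 of the 12 genes, beside 15.4% of all tested probes. With the slide as a block, 5 of the 12 had an unadjusted p of at most 0.05, all higher, beside 2.78% of all tested probes. These were Sgk1, Tsc22d3, Nfkbia, Klf9 and Mt2, and the swimmers and WT overlapped for Sgk1, Nfkbia and Mt2. Mt2 differed by -0.01 without the block and by 0.37 with it. The median KO slide difference of the list, which the block subtracts gene by gene, was -0.33. The blocked values depend on the KO arrays of slide 1, where replicate 2 was the higher for most genes, at 11.91 for Zbtb16 against 10.29 in replicate 1, and at 11.25 against 10.46 for Fkbp5. Without KO replicate 1 the blocked median was 0.88 and 10 of 12 genes had an unadjusted p of at most 0.05. Without KO replicate 2 it was 0.35 and 0 of 12 did.

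**Figure D4:**
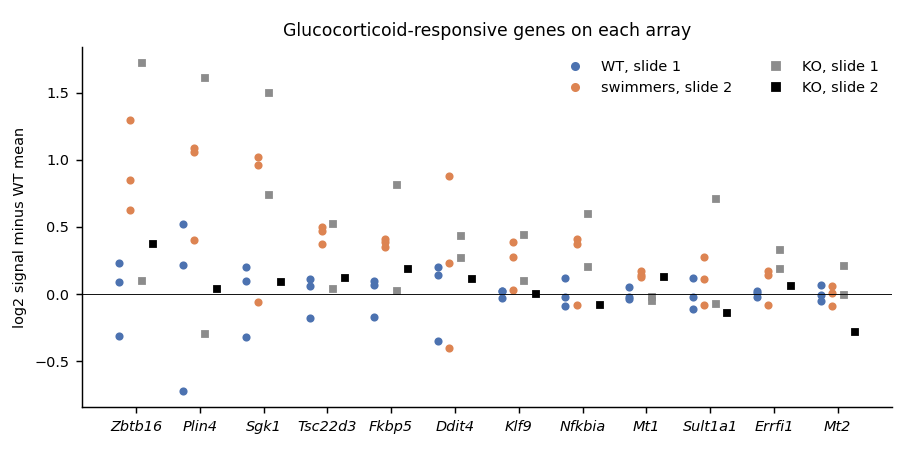
Log2 signal minus the WT mean for 12 glucocorticoid-responsive genes on each array of WT, swimmers and KO. The swimmers lie above the WT mean for most genes, with every swimmer array above every WT array for Zbtb16, Fkbp5 and Tsc22d3 among others, and 1 KO array of slide 1 is as high or higher in many of them.

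By the brightest probe of each gene, 1 call was made among heat shock and other stress genes, and the called Hspe1 probe described above is a dimmer one. Of 17 heat shock proteins and cochaperones, 1 (Hspb1) was called, and the median was 0.02. Hspa1b, an inducible member of the Hsp70 family, was 9.12, 9.18 and 9.16 in WT and 10.35, 9.36 and 9.41 in the swimmers (0.55, adjusted p = 0.235), with 1 swimmer array far above the others. Of 18 genes of the unfolded protein response, 21 of antioxidant defence, 17 of the p53 pathway and 15 stimulated by interferon, 0 were called, with medians of 0.00, -0.05, 0.02 and 0.12.

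Of 20 neuronal immediate-early genes 0 were called, and the median was 0.03, or 0.30 with the block. The median KO slide difference of the list was -0.21. Fos was 10.68, 9.05 and 8.88 in WT and 10.28, 9.55 and 9.16 in the swimmers (0.13, adjusted p = 0.896), and Egr1 differed by 0.24 (adjusted p = 0.671) and Arc by 0.00 (adjusted p = 0.991). In each group 1 array was high for Fos, and the spread within a group exceeded the difference between groups.

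Of 15 genes of the core circadian clock 1 was called. Cry1, a repressor of the clock loop, was 4.41, 4.84 and 4.95 in WT and 5.85, 6.06 and 6.17 in the swimmers (1.29, adjusted p = 0.00982), but KO was 4.32 and 4.55 on slide 1 and 6.29 on slide 2, and another Cry1 probe differed by -0.26. Arntl, which codes for BMAL1, differed by -0.18, Clock by -0.08, Per1 by -0.06, Per2 by 0.11 and the nuclear receptor gene Nr1d1 by -0.12, with adjusted p-values between 0.296 and 0.861. Of 9 clock output genes and 10 genes of the suprachiasmatic nucleus 0 were called, and the median of the latter was -0.02. Of the melatonin genes 3 had a tested probe and 0 were called.

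Hypothalamic peptides gave no call. Among 22 feeding and arousal genes 0 passed, with a median of 0.00. Pomc, the precursor of the satiety peptide alpha-MSH, differed by -0.39 (adjusted p = 0.394), and the hunger peptide genes Agrp and Npy by 0.10 (adjusted p = 0.781) and 0.04 (adjusted p = 0.848). Pmch differed by 0.40 (adjusted p = 0.139) and Hcrt by 0.01 (adjusted p = 0.974). Among the 5 tested genes of vasopressin, oxytocin and their receptors the median was -0.22. Oxt was 17.12, 16.94 and 17.09 in WT and 16.76, 16.86 and 16.82 in the swimmers (-0.24, adjusted p = 0.0967), so that the groups did not overlap, and Avp differed by -0.43 (adjusted p = 0.185).

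The releasing hormone axes were likewise without calls apart from 1 receptor. Of 8 genes of the corticotropin-releasing hormone axis 0 were called, with Crh at 0.10 (adjusted p = 0.873) and the glucocorticoid receptor gene Nr3c1 at -0.14 (adjusted p = 0.227). Of 8 genes of the thyroid axis and 12 of the reproductive axis 0 were called, and Trh, Gnrh1 and Kiss1 differed by -0.09, -0.44 and -0.22. Dio2, which activates thyroid hormone in astrocytes and tanycytes, differed by 0.19 (adjusted p = 0.161), and by 0.58 with the block (unadjusted p = 0.00244). Most of the blocked value of Dio2 thus came from the KO arrays. Of all tested probes, 2.78% were higher at a blocked p of at most 0.05. In the growth hormone axis the somatostatin receptor gene Sstr5 was called higher at 0.51 (adjusted p = 0.00797), and -0.29 with the block, and Ghrh and Sst differed by -0.24 and 0.13.

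Calls among genes of synaptic transmission and of potassium channels are given beside the 8.4% called over all tested probes. Of the 23 genes of GABA and glycine transmission described here 1 was called, the receptor subunit gene Gabbr2 (0.57, adjusted p = 0.0296), with -0.21 in the blocked fit. Of 21 glutamate genes 1 was called, the receptor subunit gene Grin3a (0.44, adjusted p = 0.0438, and -0.20 with the block). Of the 26 channel genes of the potassium list described here 2 were higher, Kcnq5 (1.14) and Hcn2 (0.38), and 1 was lower, Kcnq3 (-0.29), together 11.5% of the list. The blocked differences were -0.17, 0.02 and -0.28, so that Kcnq3, a subunit of the M-current channel, was the one whose value was close in both fits. The unadjusted p of Kcnq3 in the blocked limma fit was above 0.05. Kcnq3 also lost the call when any 1 array was left out, at adjusted p-values of up to 0.119. Gabbr2, Grin3a and Hcn2 each lost the call in 5 of the 6 limma fits that left out 1 array. Their adjusted p-values reached 0.0965, 0.131 and 0.0923. Of 19 monoamine genes and 8 opioid genes 0 were called, and Th, the rate-limiting enzyme of dopamine synthesis, differed by -0.34 (adjusted p = 0.308).

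The lists of growth, energy and translation genes had medians near 0, while single members differed more. Of the 14 neurotrophic genes described here 0 were called, with a median of 0.01, and Bdnf differed by 0.03 (adjusted p = 0.915). Of 24 insulin, mTOR and AMPK genes 1 was called, Pik3ca, a catalytic subunit of PI3-kinase (0.64, adjusted p = 0.00488, and -0.36 with the block). Of 51 nuclear genes of the respiratory chain and ATP synthase 0 were called, with a median of 0.00. Of the 45 cytosolic ribosomal proteins described here 3 were higher, Rpl4 (0.49), Rplp0 (0.28) and Rpl23 (0.26), and 1 was lower, Rps9 (-0.31), and the median was -0.03. With the block Rpl4, Rpl23 and Rps9 turned, to -0.26, -0.13 and 0.11. Rpl4 and Rps9 lost the call in 5 of the 6 limma fits that left out 1 array, at adjusted p-values of up to 0.118 and 0.144. The arrays of the groups did not overlap for 9 ribosomal genes that were higher and 17 that were lower, beside 15.4% and 22.2% of all tested probes.

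**Figure D5:**
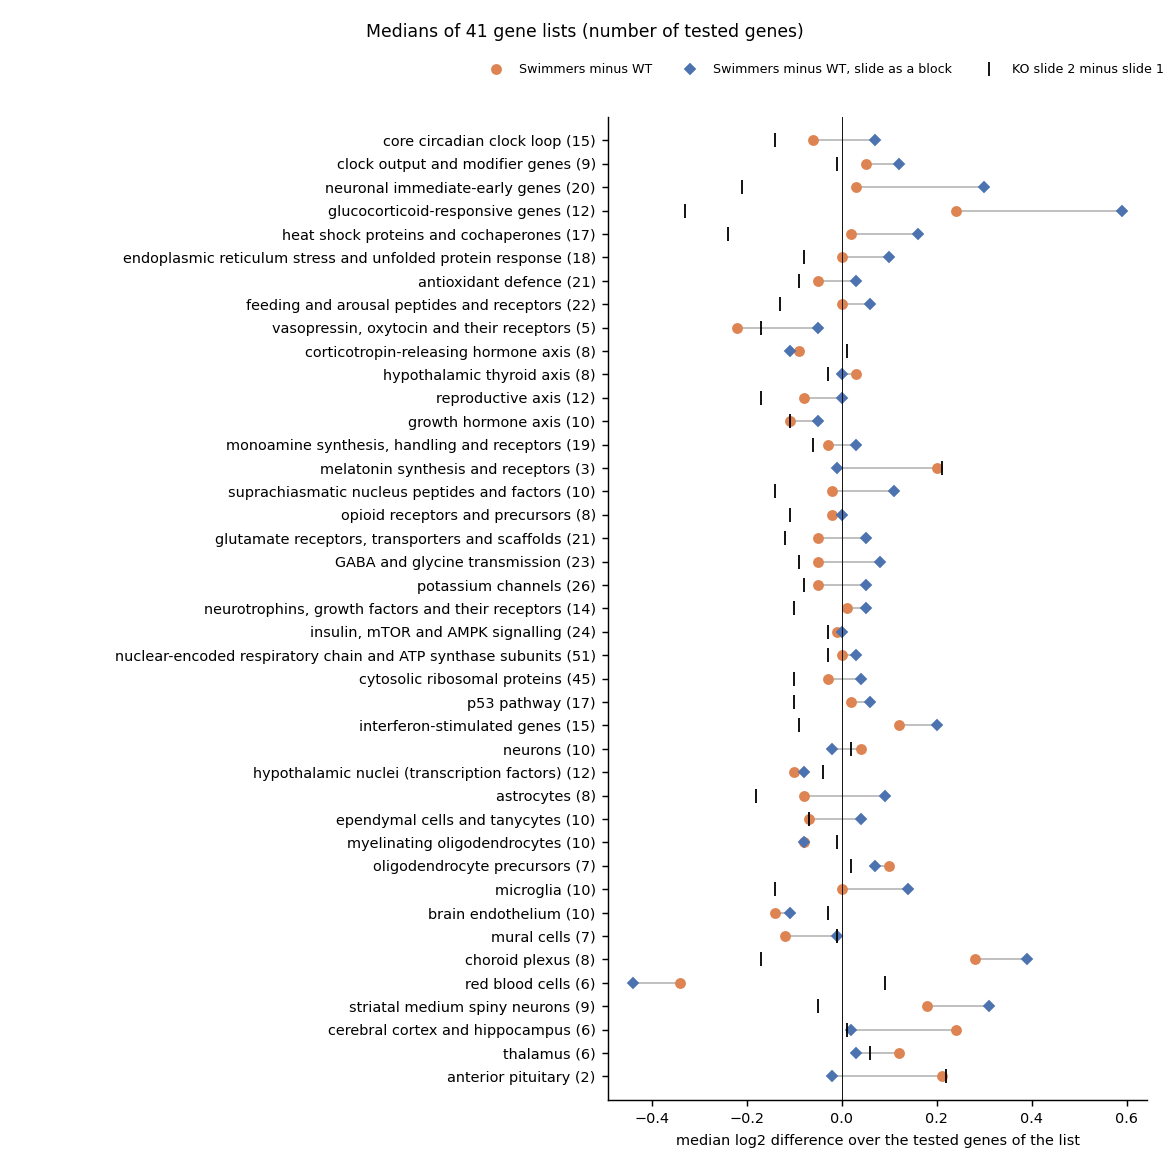
Median log2 difference of each of 41 lists, with the number of tested genes in parentheses, as swimmers minus WT (circles), swimmers minus WT with the slide as a block (diamonds) and the KO slide difference (bars). In the blocked fit with all KO arrays, the glucocorticoid-responsive genes are farthest to the right at 0.59, and red blood cell genes are farthest to the left at -0.44.

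Cell type markers were described in the same way. Medians were 0.04 for 10 neuronal genes, -0.08 for 8 astrocyte genes, -0.08 for 10 genes of myelinating oligodendrocytes, 0.10 for 7 of their precursors and 0.00 for 10 microglial genes. The medians were -0.07 for 10 genes of ependymal cells and tanycytes, 3 of them above 0, and -0.10 for the 12 transcription factors of hypothalamic nuclei, 2 of them above 0. Single calls were Vim for ependymal cells and tanycytes (0.31, adjusted p = 0.037), Ermn for oligodendrocytes (0.62, adjusted p = 0.0206) and Sim1 for hypothalamic nuclei (2.01, adjusted p = 0.013, above background on 2 of 3 WT arrays), with blocked differences of 0.14, -0.21 and -1.10. Ermn lost the call in 5 of the 6 limma fits that left out 1 array, at adjusted p-values of up to 0.0811. Sim1 lost it without replicate 1 or replicate 2 of the swimmers, at up to 0.0597. Among 10 genes of brain endothelium, 9 had a difference below 0, the median was -0.14, and 1 (Cldn5) was called lower. The 7 mural cell genes had a median of -0.12 with 0 called.

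Blood and neighbouring tissue varied between arrays. Of 6 red blood cell genes with a tested probe 1 was called, Hbb-b2 (0.60, adjusted p = 0.0459, and -0.63 with the block), against a list median of -0.34. Hbb-b2 lost the call in 5 of the 6 limma fits that left out 1 array, at adjusted p-values of up to 0.133. Alas2, the erythroid enzyme of heme synthesis, was 9.26, 9.31 and 9.37 in WT and 8.72, 9.06 and 8.81 in the swimmers (-0.45, adjusted p = 0.0502), and the summed level of the list was 17.47, 17.80 and 17.72 in WT and 17.17, 17.49 and 17.29 in the swimmers. Of 8 choroid plexus genes 0 were called, with a median of 0.28, and Ttr, the thyroxine carrier made there, was 7.15, 8.18 and 8.90 in WT and 9.82, 10.78 and 8.28 in the swimmers (1.55, adjusted p = 0.219). Markers of striatum and of cortex and hippocampus had medians of 0.18 and 0.24 with 0 called. The summed level of the striatal list was 15.43, 15.42 and 15.69 in WT and 15.45, 15.56 and 16.08 in the swimmers, so that the third swimmer array was the highest. Of the anterior pituitary genes 2 of 7 had a tested probe and Lhb was called higher (0.43, adjusted p = 0.0179), while Gh and Pou1f1 were at background on all 6 arrays. Lhb lost the call in 4 of the 6 limma fits that left out 1 array, at adjusted p-values of up to 0.0728. The summed level of the pituitary list was 7.63, 8.14 and 7.62 in WT and 7.92, 8.13 and 10.94 in the swimmers, so that 1 swimmer array stood above the others. The part of blood, choroid plexus, striatal, cortical and pituitary RNA in the differences above was not tested.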

How the data were processed

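Hypothalamus RNA of 4 groups of 3 samples was hybridized to one-color Agilent SurePrint G3 arrays. The authors deposited scanner output in which the intensity of each spot had been background-subtracted and detrended within the array by Agilent Feature Extraction 10.7.1.1, and a table of log2 values that they had normalized in GeneSpring (quantile, 12 arrays), next to raw intensity. The deposited raw intensity lay within 0.01 of the scanner output on the log2 scale for 56581 to 56605 probes per array. The authors' comparison tables hold fold changes and p-values of probes past their criterion and were not used, and 84 columns of values per sample were not used. Groups and replicate numbers came from the labels, and slides from the scanner output.

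The deposited log2 values of the 3 swimmer and 3 WT arrays entered limma 3.58.1 (R 4.3.3, two-sided, empirical Bayes), with Benjamini-Hochberg adjustment over 35230 of 56605 probes detected well above background in every array of any of the 4 groups (32542 on all 6 arrays compared). A second fit had 4 group means and the slide on 12 arrays. The fits were tested on simulated data, which for the fit of 6 arrays held no slide effect. The number of arrays limits the precision, and intensity gives no counting depth.

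Named genes, by the brightest probe that met the rule and (lists aside) was well above background on all 6 arrays, were the 10 largest rises and 10 largest falls with an adjusted p under 0.05, genes at least 2-fold changed in both fits, and members of 41 lists (594 genes, with some list members not reported here). Genes past the thresholds of both fits were named after their values were seen. Members and lists were chosen with earlier results of these data known. Alternatives were other scalings, background correction (normexp, offset 50), filters, priors and tests, probes averaged per gene, blocks, and leaving out each array. In those that start from the scanner output, 24 missing values were filled with the probe mean. Positions are those of the array annotation (mm9), and intron, exon and UTR positions were not analysed here. Tables and figures used pandas 2.3.3, numpy 2.4.6 and matplotlib 3.10.9 under Python 3.11.15.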

Additional observations from a re-analysis of the deposited data

How the results depend on the processing

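The count of 2958 probes with an adjusted p under 0.05 was 2791 (2081 higher and 710 lower) with 75th percentile scaling and 2942 with a separate quantile normalization. It was 4609 (2683 higher and 1926 lower) with normexp background correction, 4642 (2805 and 1837) with a trended and robust prior, 1635 with the methods' t-test after Benjamini-Hochberg adjustment (730 at its screening threshold), 1674 without a detection filter and 908 with probes averaged per gene. It was 0 in a fit of 4 group means on all 12 arrays, where 9154 probes had an unadjusted p under 0.05 and the smallest adjusted p was 0.0934, and 0 with the slide as a block, with and without KO replicate 1 or 2. Leaving out 1 array gave 957 (without replicate 2 of the swimmers) to 2467 (without WT replicate 2), with 1043 and 1447 without replicates 1 and 3 of the swimmers, and 1533 and 1113 without WT replicates 1 and 3. The 795 probes at the screening criterion became 460 with a filter on all 6 arrays, 1428 without a filter, 267 (266 higher and 1 lower) with normexp, 237 averaged per gene, and with the slide as a block 277 (124 higher and 153 lower), or 460 and 380 without KO replicates 1 and 2. Leaving out 1 array gave 764 to 936. The 115 probes of both fits became 56 with the t-test and 48 without a filter. Without 1 array they became 32 (without WT replicate 3) to 76 (without WT replicate 2). With the fit on all 12 arrays as the first fit the count was 0, which was fixed because that fit had 0 adjusted calls. The cause of these moves was not tested, except that the filters, averaging and left-out arrays change what is tested.

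Same-numbered WT and swimmer samples had correlations of their deviations of 0.072, 0.041 and 0.153, not all above 0.1, so the numbers were not taken as pairs, although every sample correlated best with its own number. With the replicate block, 1401 probes had an adjusted p under 0.05 (1215 higher and 186 lower), 800 met the screening criterion and 45 were called in both fits.

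Signs turned with the slide as a block for the following log2 differences, given with all KO arrays and then without KO replicate 1 and without KO replicate 2. They were -0.39, -0.29 and -0.49 for Gm12504, -0.60, -0.59 and -0.62 for Paip2b, -0.45, -0.68 and -0.22 for Ep300, -0.61, -0.65 and -0.57 for Xpo6, -0.41 in each for Hspe1, and -0.98, -0.79 and -1.17 for Ranbp1. They were -0.52, -0.77 and -0.26 for Axin2, -0.26, -0.28 and -0.24 for Sgk3, -0.44, -0.39 and -0.50 for Olfr173, -0.56, -0.45 and -0.68 for Cry1, -0.29, -0.26 and -0.32 for Sstr5, and -0.20, -0.24 and -0.16 for Grin3a. Gabbr2 was at -0.21, -0.30 and -0.12, Kcnq5 at -0.17, -0.23 and -0.12, and Pik3ca at -0.36, -0.38 and -0.34. Rpl4 was at -0.26, -0.36 and -0.15, Rpl23 at -0.13, -0.11 and -0.14, Rps9 at 0.11, 0.09 and 0.13, Sim1 at -1.10, -1.07 and -1.12, Ermn at -0.21, -0.25 and -0.18, and 6720468P15Rik at 0.08, 0.05 and 0.11. St6galnac2 was at 0.02 and, without KO replicate 1, 0.16, and Hbb-b2 at -0.63 and, without KO replicate 2, -1.28. Without KO replicate 2, Slc17a9 was at 0.03, Cabp5 at 0.18 and Phyhipl at 0.26. Averaged over the probes of a gene, Ppp5c was at 0.71 and Zfp160 at -0.06.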
